A study of Mus musculus with 8 samples.

Results

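The cells described here are bone marrow stem cells of mice that held Vwf transcripts, called Vwf+ HSCs below. They were selected on measured values. Of 59465 cell barcodes in the 8 count matrices, 46159 were kept, with at least 1000 unique molecular identifiers (UMIs, the count of captured transcripts) and under 10% of UMIs in mitochondrial genes. A kept cell was taken as a stem cell (HSC) when it held at least 1 UMI of at least 2 of Hlf, Procr and Mecom and no UMI of Flt3 or Pf4. The 2942 cells that met this rule were 667 with at least 1 Vwf UMI, the Vwf+ HSCs, and 2275 without one, the Vwf- HSCs. Vwf+ HSCs were therefore 22.7% of the stem cells and 1.45% of all cells kept.

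The study measured single-cell transcriptomes of lineage-negative, c-Kit+ marrow, the fraction that holds haematopoietic stem and progenitor cells, across the life of wild-type mice. A male and a female were sampled at each of 4 ages: 14 weeks (young), 50 weeks (middle-aged), 78 weeks for the male and 79 weeks for the female (old), and 95 weeks (very old). Each mouse gave 1 library, no mouse was treated, and the labels name no transgene or deletion. With 1 mouse per sex and age, sex can be described but not tested within an age. The 6 mice of 14 to 79 weeks belong to library series SL19 and both 95-week mice to SL20, so a difference of the very old mice and the library series cannot be told apart. Apart from the lineage-negative, c-Kit+ selection, cells were not sorted on stem cell proteins. The stem cells of the rule were between 2.51% and 11.8% of the cells kept of a mouse.

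Vwf encodes von Willebrand factor, a large adhesive glycoprotein that endothelial cells and megakaryocytes store in granules and that tethers platelets to injured vessels through the glycoprotein Ib-IX-V complex. In the mouse, part of the HSC pool carries its transcript, and such cells are known for giving rise to platelets and myeloid cells more than to lymphocytes. Of the genes of the rule, Hlf and Mecom encode transcription factors of HSCs and Procr a receptor for activated protein C at the HSC surface, while Flt3 is a cytokine receptor of multipotent and lymphoid-primed progenitors and Pf4 a platelet chemokine. On the GRCm38 build, Vwf (ENSMUSG00000001930) spans chr6:125546774-125686679 on the plus strand.

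Vwf was a sparse transcript in these cells. Of the 667 Vwf+ HSCs, 408 (61.2%) held 1 Vwf UMI, 156 held 2 and 103 held 3 or more, with a maximum of 9. The share with only 1 Vwf UMI was 77.8% in the young male and 84.6% in the young female, and lay between 51.9% and 64.3% in the other 6 mice. Summed over the Vwf+ HSCs of a mouse, Vwf reached 85.8 and 62.8 CPM (UMIs of a gene over all UMIs of the summed cells, the latter rescaled by edgeR's TMM factor) in the young male and female, 170 and 115 at 50 weeks, 186 and 189 at 78 and 79 weeks, and 130 and 202 at 95 weeks. These levels are set in part by the selection and are given without a test. All 3 of Hlf, Procr and Mecom were seen in 347 Vwf+ HSCs (52.0%) and in 740 Vwf- HSCs (32.5%).

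Cells just outside the rule were examined in the same way, without a test. Vwf UMIs were found in 3861 cells kept in all, of which 901 held none of Hlf, Procr, Mecom, Flt3 and Pf4. A further 198 cells with Vwf held only 1 of the 3 genes, 307 met the stem cell genes but held Pf4, and 51 held Flt3. Fgd5, an HSC gene the rule did not use, was at 27.0 CPM in the summed Vwf+ HSCs (here over plain UMI totals), 6.26 CPM in the cells with 1 of the 3 genes, 8.43 CPM in those with Pf4 and 7.69 CPM in those with Flt3. The platelet integrin Itga2b was at 35.0 CPM in the Vwf+ HSCs and at 244 CPM in the cells excluded for Pf4. Within the rule, Fgd5 stood at 26.8 CPM in Vwf+ HSCs with 1 Vwf UMI and at 27.2 CPM in those with 2 or more.

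The libraries held between 83062003 and 150135029 UMIs. Of 58996 distinct barcodes, 467 occurred in at least 2 libraries, and 12 Vwf+ HSCs carried such a barcode. Doublets were not removed, because the caller used (Scrublet) marked under 0.5% of the cells in 4 libraries. The mice contributed unequal numbers of Vwf+ HSCs. There were 9 in the young male and 13 in the young female, 77 and 51 at 50 weeks, 186 and 93 at 78 and 79 weeks, and 168 and 70 at 95 weeks, males first. Their median depth ran from 7182.5 UMIs in the very old female to 15898 UMIs in the young female.

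A few deep cells carried much of the RNA of the young mice. Vwf+ HSCs with more than 15000 UMIs were 2 of 9 in the young male and 7 of 13 in the young female, and they held 55.0% and 79.0% of the UMIs summed over the Vwf+ HSCs of these mice. In the other 6 mice such cells held between 12.3% and 53.3%. Of the 22 young Vwf+ HSCs, 4 held 10 or more UMIs of Car1, an erythroid carbonic anhydrase, against 11 of the 517 Vwf+ HSCs of 78 to 95 weeks. The summed erythroid markers (Hba-a1, Hbb-bs, Klf1 and Car1) were at 1379 and 553 CPM in the young Vwf+ HSCs and between 64.7 and 876 CPM in those of the other mice. The part of these cells in the age comparisons was not tested by itself, and list counts are also given without cells of more than 15000 UMIs where they changed by much.

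**Figure D1:**
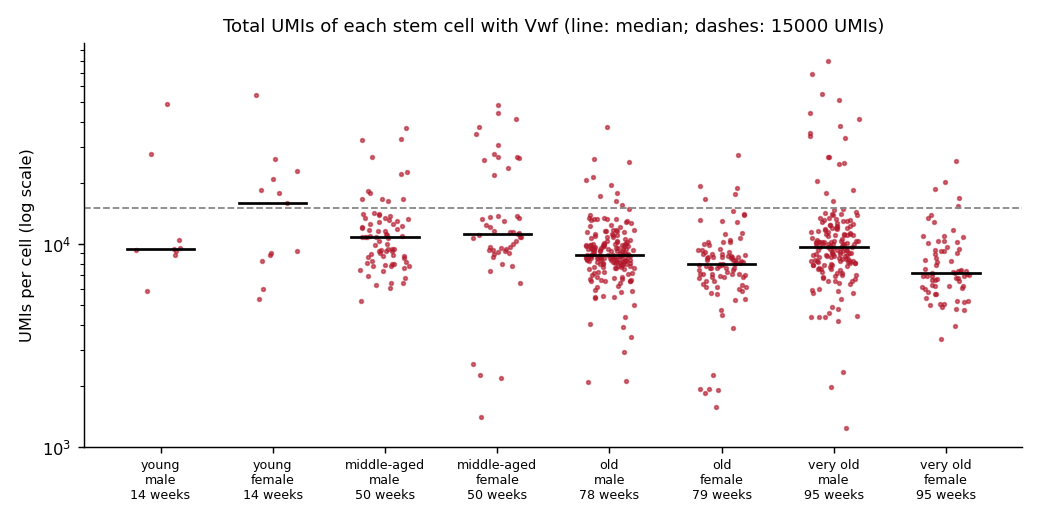
Total UMIs of each Vwf+ HSC (log axis) by mouse, with the median as a line and 15000 UMIs as a dashed line. The young male and female hold 9 and 13 cells, of which 2 and 7 lie above the dashed line.

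The share of stem cells with Vwf was higher in each mouse of 50 weeks or more than in both young mice. Since a deeper cell has more chances to show a Vwf UMI, each stem cell was thinned to 5000 UMIs before Vwf was read, and shallower cells (8 to 49 stem cells per mouse) were left out. At this depth 4.27% of the stem cells of the young male (exact 95% binomial interval 1.40% to 9.69%) and 2.83% of those of the young female (1.05% to 6.06%) held Vwf. At 50 weeks the shares were 10.1% in the male (7.47% to 13.3%) and 9.89% in the female (6.62% to 14.1%). At 78 and 79 weeks they were 21.2% (17.9% to 24.8%) and 19.5% (15.2% to 24.4%). At 95 weeks they were 18.8% in the male (15.4% to 22.6%) and 12.4% in the female (9.05% to 16.3%). The intervals cover counting error only. The old and very old mice all lay above the middle-aged mice, and the very old female had the lowest share of these 4. Without cells of more than 15000 UMIs this order was lost, with 13.7% in the very old female and 14.5% in the middle-aged female.

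The mean share was 3.55% ± 1.02 (SD, n = 2) at 14 weeks, 10.0% ± 0.157 (SD, n = 2) at 50 weeks, 20.4% ± 1.25 (SD, n = 2) at 78 to 79 weeks and 15.6% ± 4.57 (SD, n = 2) at 95 weeks. The 4 mice of 78 to 95 weeks averaged 18.0% ± 3.88 (SD, n = 4), 14.4 percentage points above the young mice and 5.06 times their mean. Among stem cells with all 3 of Hlf, Procr and Mecom the means were 10.7% and 24.4%, a ratio of 2.27. The exact two-sided permutation test over mice gave p = 0.0667, the lower limit of that test with groups of 2 and 4. Without thinning, the shares were 7.03% and 5.91% in the young mice, 16.7% and 17.7% at 50 weeks, 30.3% and 27.0% at 78 and 79 weeks, and 32.9% and 18.6% at 95 weeks, males first, a difference of 20.7 points between the same groups. Between 78-79 and 95 weeks the thinned means differed by -4.77 points, with a single mouse per sex in each age and no p under 0.333 possible.

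The share was also read in committed cells without the stem cell genes. Granulocyte progenitors without Hlf, Procr or Mecom (9558 cells, median 20472 UMIs) held Vwf in 0.236% of cells at 5000 UMIs, and in no mouse in more than 0.545%. Erythroid cells without these genes (11217 cells, median 26288 UMIs) held it in 1.87%, from 1.04% to 2.40% between mice. The stem cells with and without Vwf of a mouse had median depths between 7182.5 and 15898 UMIs. The intervals of both young mice reached below this pooled erythroid share. Against the erythroid cells of the same mouse, the interval of the young female held the 2.40% of that mouse, and that of the young male began above 1.04%. The intervals of the other 6 mice lay wholly above the shares of both kinds of committed cell. The erythroid share exceeded the granulocyte share at the same depth, and erythroid cells were not required to lack Pf4. How much of either share is stray transcript was not tested.

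Across the 8 mice the thinned share correlated with age in weeks, with Pearson's r = 0.861 (exact permutation p = 0.00992, adjusted over 2 relations 0.0198) and Spearman's rho = 0.764 (exact permutation p = 0.0353, adjusted 0.0706). Within the 6 mice of library series SL19, r was 0.975 (exact permutation p = 0.0222) and rho 0.912 (exact permutation p = 0.0222). Without the 2 young mice, the farthest from the median age, r was 0.599 (exact permutation p = 0.256), so the relation was not shown without them.

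Taken over all cells kept, Vwf+ HSCs rose from 0.176% and 0.184% in the young male and female to 1.54% and 1.04% at 50 weeks, 3.56% and 1.54% at 78 and 79 weeks, and 3.02% and 0.964% at 95 weeks, males first. Every mouse of 50 weeks or more lay above both young mice. At each of these 3 ages the male had the higher share, with 1 mouse of each sex per age. The mean of the 4 mice of 78 to 95 weeks was 2.27% ± 1.22 (SD, n = 4) against 0.180% ± 0.00549 (SD, n = 2), a difference of 2.09 points and a ratio of 12.6, with an exact permutation p = 0.133. The difference was 1.12 points when cells were thinned before the rule and 0.839 points when at least 2 Vwf UMIs were required, with ratios of 14.97 and 25.9, and the ratio was 19.0 without members of more than 15000 UMIs. The correlation with age had r = 0.701 (exact permutation p = 0.0544, adjusted 0.0544) and rho = 0.546 (exact permutation p = 0.171, adjusted 0.171) over 8 mice, r = 0.839 (exact permutation p = 0.0444) and rho = 0.765 (exact permutation p = 0.0889) in the 6 mice of SL19 and r = 0.342 without the young mice. A share of all cells also depends on how many progenitors a library held.

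**Figure D2:**
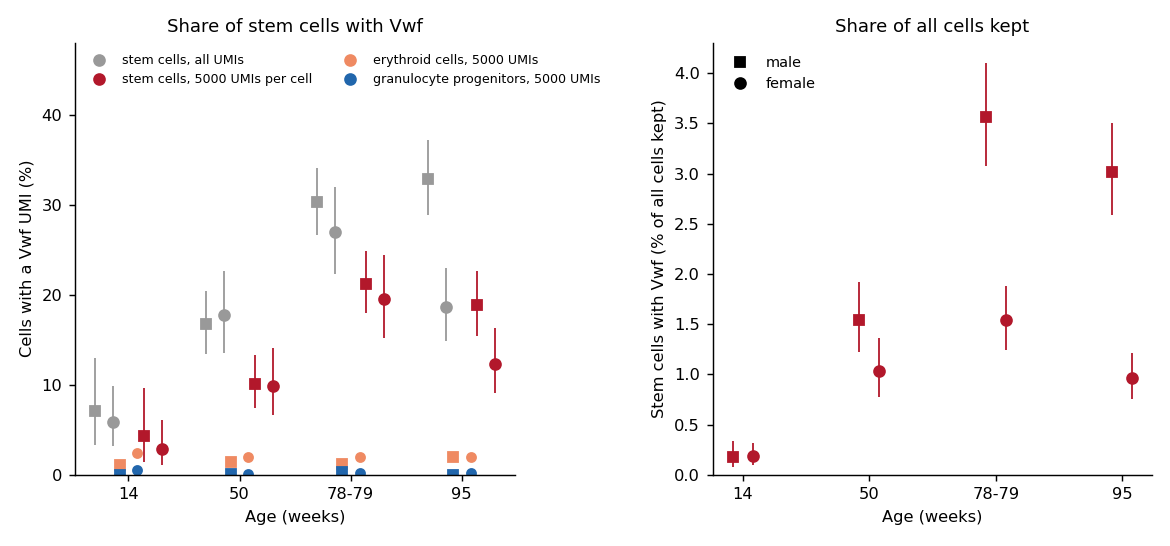
Left, percent of stem cells with a Vwf UMI by age in weeks, with all UMIs (grey) and at 5000 UMIs per cell (red), beside erythroid cells (orange) and granulocyte progenitors (blue) at 5000 UMIs; right, Vwf+ HSCs as percent of all cells kept. Squares are males, circles females and bars exact 95% intervals. At 5000 UMIs the 6 mice of 50 to 95 weeks lie between 9.89% and 21.2%, above the young mice at 4.27% and 2.83%.

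Vwf+ HSCs differed from the Vwf- HSCs of the same mice in many genes. UMIs were summed per mouse over each kind of cell and tested with edgeR's quasi-likelihood test, with the mouse as a block and Benjamini-Hochberg adjustment. Of 9661 genes tested, 1329 (13.8%) passed an adjusted p under 0.05, 690 (7.14%) higher and 639 (6.61%) lower in Vwf+ HSCs. Most stem cell and platelet genes tested were higher in Vwf+ HSCs (16 of 24 and 13 of 19), while 9 of 15 granulocyte and monocyte genes were lower, as were 3 of 7 lymphoid and 10 of 20 S and G2/M phase genes. Of the genes called, 259 were higher and 328 lower in all 8 mice. Genes that were not called were not counted in this way, so these numbers have no background share. When all 3 of Hlf, Procr and Mecom were required of both kinds of cell 183 genes passed, 800 passed when the Vwf- HSCs were matched to the Vwf+ HSCs of each mouse in number and total UMIs, and 47 of the 1207 genes then tested passed when each mouse gave only 9 cells of each kind.

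Among the 10 genes with the highest differences that kept their sign in all 8 mice, Clu, encoding the secreted chaperone clusterin, led. In the Vwf+ HSCs it stood at 6.60 and 29.3 CPM in the young male and female, 69.2 and 38.9 CPM at 50 weeks, 145 and 83.2 CPM at 78 and 79 weeks, and 60.4 and 128 CPM at 95 weeks. In the Vwf- HSCs of the same mice it was between 0.551 and 32.6 CPM. The difference was 2.38 ± 0.20 on the log2 scale (SE, edgeR adjusted p = 8.1e-08), a ratio of 5.19. Chil5 (2.27), Tent5c (1.98), Tm4sf1 (1.98), the junction molecule Jam2 (1.96), Map1b (1.89), the metalloproteinase inhibitor Timp3 (1.86), the caveolar protein gene Cavin2 (1.84) and Ehd3 (1.83) followed on the same log2 scale.

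Slamf1, which encodes the SLAM receptor CD150 used to purify HSCs, was 1.91 ± 0.22 higher on the log2 scale (edgeR adjusted p = 2.73e-06). Its level was 26.4 and 4.19 CPM in the young Vwf+ HSCs and between 11.3 and 51.4 CPM in the other 6 mice, and averaged 30.5 ± 15.8 CPM (SD, n = 8) against 7.41 ± 5.09 CPM (SD, n = 8) in Vwf- HSCs. Cd48 encodes the related receptor that HSC sorting selects against, and it was 1.64 ± 0.15 lower, a log2 difference of -1.64 (edgeR adjusted p = 1.88e-07). At 5000 UMIs per cell, Slamf1 was seen in 0% to 22.2% of Vwf+ HSCs by mouse and in 1.01% to 8.27% of Vwf- HSCs, and Cd48 in 0% to 11.1% against 10.1% to 34.3%.

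The genes that stood lowest in Vwf+ HSCs were Cd244a, another SLAM family receptor (-2.54 ± 0.26, edgeR adjusted p = 5.31e-07), Rnase6 (-2.06), Tespa1 (-2.03), Lat2 (-1.94), Fgf3 (-1.89), the lymphocyte antigen gene Cd52 (-1.80), H2-Ob (-1.73) and the lymphoid chromatin organiser Satb1 (-1.69), all log2 differences, with Bex6 between Tespa1 and Lat2. Cd34, a surface sialomucin that rises as HSCs leave the most primitive state, fell from 167-328 CPM in the Vwf- HSCs to 42.5-128 CPM in the Vwf+ HSCs, without overlap between the groups. Its log2 difference was -1.52 ± 0.09 (edgeR adjusted p = 5.86e-10).

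**Figure D3:**
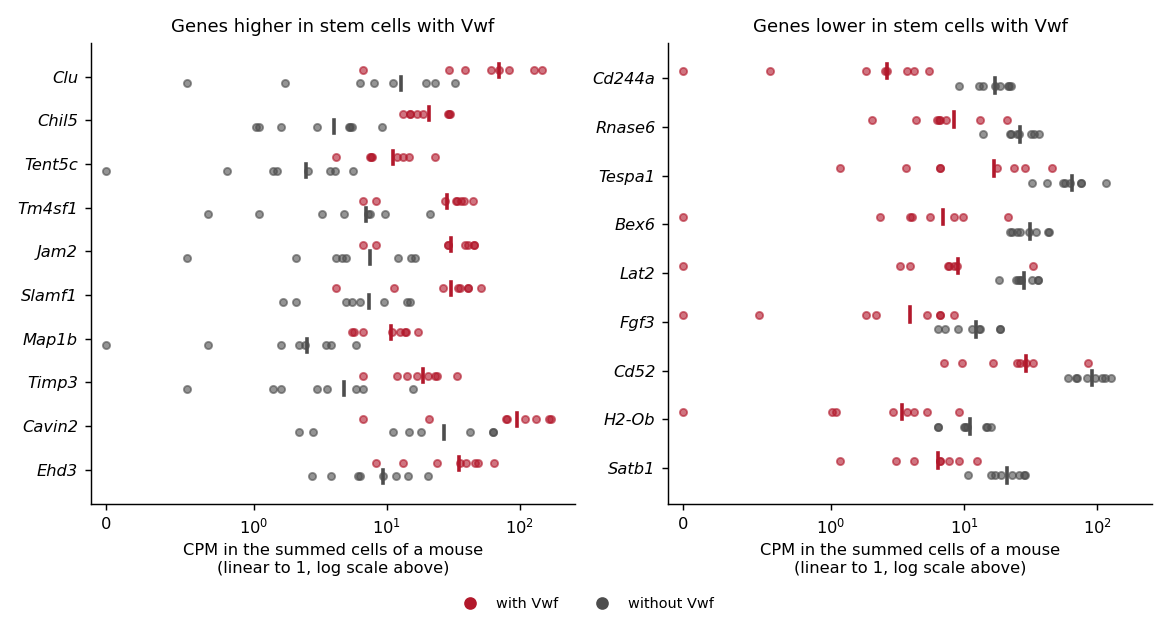
CPM in the summed cells of each of the 8 mice (points; axis linear to 1 and logarithmic above, vertical bars the means) for Vwf+ HSCs (red) and Vwf- HSCs (grey). The 10 genes of highest and 9 genes of lowest log2 difference with the same sign in every mouse are shown, from Clu at 2.38 to Cd244a at -2.54.

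Gene lists gave the wider pattern, each read against a median log2 difference of 0.01 over all genes tested. Of 24 stem cell genes that the rule did not use, 16 were higher and 1, Cd34, was lower, with a list median of 0.66. The higher members held Hoxb5, a homeobox marker of long-term HSCs (1.44 ± 0.19, edgeR adjusted p = 1.8e-05), Fgd5, an exchange factor gene used to mark HSCs (1.25 ± 0.18, edgeR adjusted p = 4.72e-05), and Mllt3, a chromatin reader that maintains HSCs (1.29). Fgd5 stood higher in Vwf+ HSCs in each mouse, at 16.8 to 42.8 CPM against 2.78 to 19.1 CPM.

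Of 24 tested genes of a list published as rising in aged HSCs, 23 were higher in Vwf+ HSCs and none was lower, with a median of 1.38. The mouse was a block in this comparison, so the ages were equal on both sides. Sult1a1, a sulfotransferase gene, was 1.68 ± 0.15 higher on the log2 scale and Nupr1, a stress-induced chromatin protein gene, 1.69 ± 0.16 higher (edgeR adjusted p = 1.35e-07 and 2.45e-07). Clu, Cavin2, Selp and Itgb3 stand both on this list and on the platelet list.

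Platelet and megakaryocyte genes were mostly higher: 13 of 19 tested rose and 1, Plek, fell, with a median of 0.51. Of the 6 tested genes for receptors, granule partners and processing enzymes of von Willebrand factor, 3 were higher. Selp, encoding P-selectin, which shares storage granules with von Willebrand factor, was 1.25 ± 0.13 higher (edgeR adjusted p = 1.31e-06). Itgb3, the beta chain of the platelet fibrinogen receptor, which also binds the factor, was 1.51 ± 0.20 higher (edgeR adjusted p = 1.61e-05), and Gp9, a subunit of the receptor complex for the factor, 1.01 ± 0.16 higher (edgeR adjusted p = 0.000111). Itga2b, the alpha chain partner of Itgb3, had a log2 difference of 0.08 ± 0.16 (edgeR adjusted p = 0.799), at 13.2 to 59.8 CPM against 21.8 to 41.0 CPM.

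Of the megakaryocyte markers beside Pf4, 4 of 6 were detected in Vwf+ HSCs while Tubb1 and Gp6, both genes of platelet-making cells, were at 0 in all mice. Summed, the 6 markers stood at 37.6 to 97.3 CPM in Vwf+ HSCs and at 33.0 to 60.6 CPM in Vwf- HSCs. In 2389 cells with 5 or more Pf4 UMIs Itga2b was at 381 CPM, Gp9 at 81.7 CPM, Ppbp at 12.5 CPM and Cd9 at 606 CPM, against 35.0, 23.8, 0.138 and 147 CPM in the summed Vwf+ HSCs, all over plain UMI totals. Tubb1 was at only 0.0779 CPM in the Pf4 cells, so its 0 does not separate the groups at this depth. The endothelial marker Cdh5 was at 0 in Vwf+ HSCs, but 8 of 9 endothelial markers were detected. Their sum was 50.2 to 187 CPM against 42.4 to 96.0 CPM in Vwf- HSCs. Cldn5, of the same list, stood at 71.6 CPM in the summed Vwf+ HSCs and 12.0 CPM in the Vwf- HSCs, over plain UMI totals. Siglech, Cd3e and Trbc2, markers of plasmacytoid dendritic and T cells, were also at 0, but other markers of their lists were detected. The T and NK cell markers (3 of 5 detected) summed to 27.0 to 174 CPM in Vwf+ HSCs against 163 to 328 CPM in Vwf- HSCs. Monocyte and dendritic cell markers (5 of 6) summed to 37.7 to 93.6 CPM against 31.3 to 101 CPM. B lineage markers (6 of 6) summed to 16.7 to 49.6 CPM against 31.8 to 39.1 CPM.

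Of 15 granulocyte and monocyte genes, 9 were lower and none higher, with a median log2 difference of -0.99, while without cells of more than 15000 UMIs 4 of 12 were lower and 1 higher (median -0.37). The granule protein genes Mpo (-1.14), Elane (-1.29) and Ctsg (-1.30) and Cebpa, the transcription factor of granulocyte commitment (-1.57), were among them. Of 7 lymphoid genes, 3 were lower and none higher (median -0.75). Summed neutrophil markers were at 33.5 to 564 CPM in Vwf+ HSCs and at 317 to 930 CPM in Vwf- HSCs, and mast cell and basophil markers at 7.62 to 53.8 CPM against 58.1 to 211 CPM. The neutrophil sum was higher in Vwf+ HSCs in the middle-aged female (564 against 438 CPM) and the old female (522 against 482 CPM), and lower in the other mice. The part of transcripts from other cells in these differences was not tested.

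Cell cycle genes were lower as a list, with 10 of 20 S and G2/M phase genes lower, none higher and a median of -0.50. Mki67, a marker of all cycling phases, had a log2 difference of -0.13 ± 0.28 (edgeR adjusted p = 0.831). At 5000 UMIs per cell, a UMI of Mki67 or Top2a was found in 33.3% and 53.8% of the young Vwf+ HSCs, 18.2% and 25.5% at 50 weeks, 11.2% and 15.5% at 78 and 79 weeks, and 14.6% and 24.6% at 95 weeks, males first. Vwf- HSCs showed one in 49.1% and 43.7%, 40.2% and 37.2%, 19.1% and 35.6%, and 24.7% and 39.3%. The share was lower in Vwf+ HSCs in 7 of 8 mice, the young female being the exception. Without cells of more than 15000 UMIs, 19 of 19 tested phase genes were lower (median -0.83).

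Among CDK inhibitors, D cyclins and Cdk6, Cdkn1c, which encodes the inhibitor p57 of quiescent HSCs, was 1.04 ± 0.14 higher in Vwf+ HSCs (edgeR adjusted p = 2.8e-05) and Ccnd2 was also higher, while Cdk4 and Cdk6 were lower. Cdk6, a kinase that drives HSCs out of quiescence, stood at 96.4 to 264 CPM in Vwf+ HSCs and 261 to 368 CPM in Vwf- HSCs, a log2 difference of -0.76 ± 0.10 (edgeR adjusted p = 1.09e-05). Of 8 immediate-early genes 6 were higher, with Jun at 0.91 ± 0.11 (edgeR adjusted p = 4.69e-06). Of 16 MHC class I and interferon-response genes, 1 was higher and 4 were lower, and of 8 erythroid genes 1, Car2, was higher.

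When stem cells of the 6 mice of 50 to 95 weeks were split by the number of Vwf UMIs, several of these genes stepped with it. On plain UMI totals, Clu averaged 16.7 CPM in cells with 0 Vwf UMIs, 71.9 CPM with 1 and 101 CPM with 2 or more. Hoxb5 stepped from 8.35 to 17.5 to 27.5 CPM, upward at both steps in 6 of 6 mice. Selp stood at 31.5, 69.1 and 86.3 CPM, and Cd34 at 228, 88.4 and 62.9 CPM. From 1 to 2 or more Vwf UMIs, Clu and Selp were higher in 5 of 6 mice and Cd34 in 1 of 6. Other genes barely moved at that step: Fgd5 (25.4 and 25.5 CPM), Cd9 (146 and 145 CPM) and Tm4sf1 (33.4 and 34.4 CPM). Mki67 stood at 146, 80.7 and 121 CPM. Over all 8 mice, cells with 2 or more Vwf UMIs were also slightly deeper, with a median of 9424 UMIs against 8806 UMIs for cells with 1 and 9153 UMIs for cells with 0. Clu, Hoxb5, Selp and Cd34 were taken from genes that differed with Vwf, so their step from 0 to 1 UMI follows from that choice. These steps are a description of the cells the rule chose and carry no test.

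**Figure D4:**
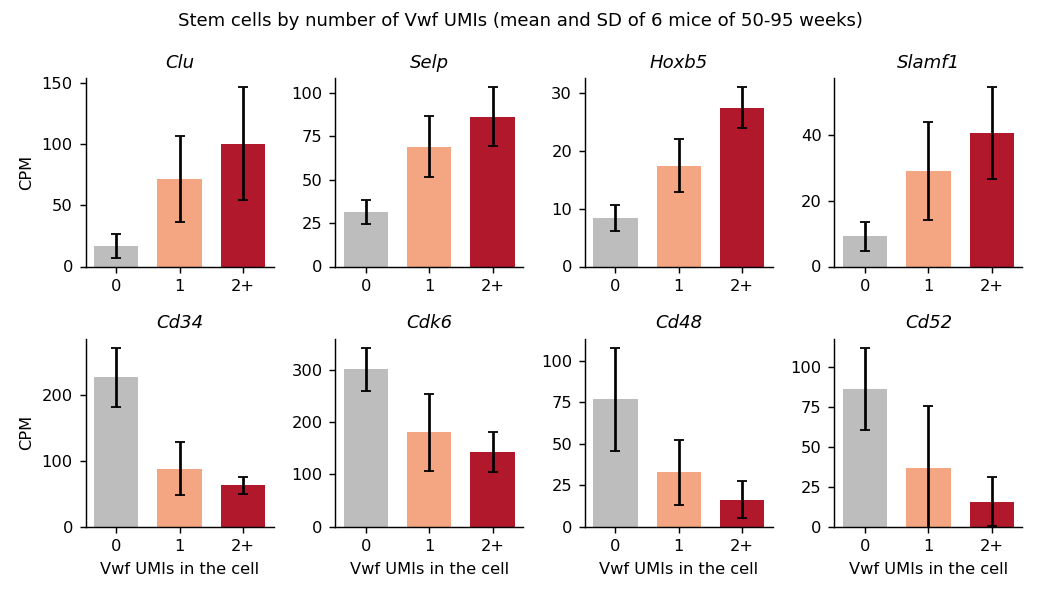
Mean CPM and SD over the 6 mice of 50 to 95 weeks in stem cells with 0, 1 or 2 and more Vwf UMIs, for 8 genes called between Vwf+ and Vwf- HSCs (an SD that would pass below 0 is drawn to the axis). The upper genes step up, as Hoxb5 from 8.35 to 27.5 CPM, and the lower genes step down, as Cd34 from 228 to 62.9 CPM.

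The promoters of 5 genes on the same chromosome are shown because Selp, Slamf1 and Cavin2 stood higher and Cd48 and Cd34 lower in Vwf+ HSCs. Each window runs from 250 bases before to 50 bases after the RefSeq start on GRCm38.p6, and each lies on the plus strand and was read from that strand. Capitals mark the letters AGGAAG, bound by ETS factors and written CTTCCT where they lie on the opposite strand, or TGTGGT, bound by RUNX factors and written ACCACA on the opposite strand.
Selp, chr1:164115014-164115313: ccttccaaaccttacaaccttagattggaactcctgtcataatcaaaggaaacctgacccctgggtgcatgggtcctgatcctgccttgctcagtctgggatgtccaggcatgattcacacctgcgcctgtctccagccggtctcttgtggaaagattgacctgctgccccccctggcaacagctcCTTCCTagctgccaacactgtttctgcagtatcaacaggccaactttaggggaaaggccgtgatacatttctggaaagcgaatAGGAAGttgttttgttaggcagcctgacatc
Slamf1, chr1:171766882-171767181: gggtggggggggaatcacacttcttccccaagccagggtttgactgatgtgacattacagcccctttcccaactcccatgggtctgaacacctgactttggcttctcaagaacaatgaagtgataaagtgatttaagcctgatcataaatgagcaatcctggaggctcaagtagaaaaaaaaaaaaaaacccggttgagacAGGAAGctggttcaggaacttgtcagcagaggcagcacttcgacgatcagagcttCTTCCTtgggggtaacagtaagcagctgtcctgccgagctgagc
Cavin2, chr1:51288876-51289175: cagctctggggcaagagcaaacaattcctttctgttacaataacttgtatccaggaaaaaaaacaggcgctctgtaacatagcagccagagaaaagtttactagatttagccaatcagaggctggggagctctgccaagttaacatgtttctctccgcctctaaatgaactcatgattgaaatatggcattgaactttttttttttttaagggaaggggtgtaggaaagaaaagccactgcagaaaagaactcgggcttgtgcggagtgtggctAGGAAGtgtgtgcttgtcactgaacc
Cd48, chr1:171681742-171682041: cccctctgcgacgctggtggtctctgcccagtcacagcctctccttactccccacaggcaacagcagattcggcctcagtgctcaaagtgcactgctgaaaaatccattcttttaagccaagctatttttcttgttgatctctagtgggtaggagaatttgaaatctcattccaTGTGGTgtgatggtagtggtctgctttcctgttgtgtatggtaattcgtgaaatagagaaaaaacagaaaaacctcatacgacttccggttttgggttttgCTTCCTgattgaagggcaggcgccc
Cd34, chr1:194938571-194938870: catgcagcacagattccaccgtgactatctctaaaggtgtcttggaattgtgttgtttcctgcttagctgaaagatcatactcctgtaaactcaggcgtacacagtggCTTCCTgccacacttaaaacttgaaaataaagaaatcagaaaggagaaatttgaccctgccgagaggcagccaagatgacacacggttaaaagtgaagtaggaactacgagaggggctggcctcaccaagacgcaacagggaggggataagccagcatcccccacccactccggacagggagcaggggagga
Selp and Slamf1 hold the ETS letters at 2 places each, and Cavin2, Cd48 and Cd34 at 1 each. Cd48 also holds the RUNX letters at 1 place. The GATA letters, AGATAA on the plus strand and TTATCT on the other, are in none of these 5 windows.

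Promoters were found for 8 of the 10 genes of highest difference, and 6 of these 8 windows (75.0%) held the ETS letters. For the 9 genes named as lowest 6 matched, with 12 windows in all, of which 5 (41.7%) held them. Among all 32544 promoter windows of the table, 35.1% held the ETS letters, 16.7% the RUNX letters and 11.2% the GATA letters. With so few windows the shares are only a description, and a match is no sign of binding.

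With age, Vwf+ HSCs themselves changed. In 1 edgeR quasi-likelihood fit over the 8 mice, with age group and sex as terms, 202 of 8602 genes tested (2.35%) passed between the 4 mice of 78 to 95 weeks and the 2 young mice. Of these, 134 (1.56%) were higher and 68 (0.791%) lower in the older mice. In 134 of the 134 higher genes each of the 4 older mice exceeded the young pair, as in 1661 of the genes tested, and 58 of the 68 lower genes lay below the pair in each older mouse, as 1246 did. DESeq2 called 91 higher and 52 lower. Without cells of more than 15000 UMIs the calls were 100 higher and 5 lower. Without the young female the count was 22, without the young male 65 and without the very old male 560. In sums of cells, a change in the make-up of the Vwf+ HSCs and a change of RNA within each cell cannot be told apart.

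The clearest rises were in genes at low levels in young Vwf+ HSCs. Sult1a1 stood at 26.4 and 25.1 CPM in the young male and female, 211 and 166 CPM at 50 weeks, 376 and 328 CPM at 78 and 79 weeks, and 232 and 259 CPM at 95 weeks. The older mice lay far above the young ones without overlap, by 3.49 ± 0.32 on the log2 scale (edgeR adjusted p = 4.54e-06). Nupr1 rose from 39.6 and 4.19 CPM to between 254 and 456 CPM (4.15 ± 0.54, edgeR adjusted p = 0.000257). Cavin2 rose from 6.60 and 20.9 CPM to between 108 and 172 CPM (3.20 ± 0.41, edgeR adjusted p = 0.000233). Pdzk1ip1, a small membrane protein gene active in HSCs, rose from 52.8 and 71.2 CPM to between 247 and 288 CPM (2.07 ± 0.26, edgeR adjusted p = 0.000229). Txnip, an inhibitor of thioredoxin, rose by 1.44 ± 0.20 (edgeR adjusted p = 0.000728). All 5 also passed without cells of more than 15000 UMIs.

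Of the 10 largest rises by the fitted log2 change, 7 genes had no UMI in either young mouse. The count filter, applied by age group, admitted these 7 through the mice of other ages. Their place among the largest rises is thus set in part by the zeros. Their rise is given as a bound against 3 counts over the young mice: at least 8.21-fold for Sbspon, a secreted somatomedin domain protein gene, at least 5.66-fold for Gpr183, an oxysterol receptor gene, and at least 3.59-fold for Nav1. The bounds were at least 3.25-fold for Rorb, 2.88-fold for Prdm16, an HSC transcription regulator, 2.75-fold for Crispld1 and 2.47-fold for Nbea. Sbspon had 0 and 0 UMIs in the young mice, 36 and 9 at 50 weeks, 133 and 44 at 78 and 79 weeks, and 102 and 34 at 95 weeks (edgeR adjusted p = 0.00601).

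The other 3 had 1 or 2 young UMIs. The summed ratio of older to young was 29.9 for Clca3a1 (counting interval 5.33 to 1184, 1 young UMI), 22.9 for Plscr2 (4.08 to 907, 1 young UMI) and 15.5 for the adrenomedullin receptor partner Ramp2 (4.26 to 128, 2 young UMIs). Of the 10, only Sbspon, Clca3a1 and Plscr2 still passed without cells of more than 15000 UMIs. In Vwf- HSCs of the young mice, which were summed over more cells, Nav1, Prdm16 and Crispld1 were detected, and the young zeros of these 3 in Vwf+ HSCs rest on 22 cells.

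As a list, 12 of 25 tested genes published as rising in aged HSCs rose and none fell, with a median of 2.27 (2.24 with zero-count genes at their bound) against 0.01 over all genes. Without cells of more than 15000 UMIs 8 rose, and without Mki67 or Top2a cells 3 of 22 (median 1.52). Selp rose by 2.24 ± 0.48 (edgeR adjusted p = 0.0137), from 6.60 and 25.1 CPM to between 67.1 and 112 CPM, and Clu by 2.27 ± 0.60 (edgeR adjusted p = 0.0498), both calls being lost without the deep cells. Of 18 platelet genes 4 rose (Cavin2, Clu, Pdzk1ip1, Selp; median 0.72), and none fell. Without the deep cells 2 of 17 were left, with a median of 0.83. Of 24 stem cell genes 5 rose, Mllt3 (1.30) among them, with a median of 0.88. In this list 1 of 23 was left without the deep cells, with a median of 0.27. Of the 5 tested genes for partners of von Willebrand factor, Selp alone was called, with a list median of 0.47. The median was 1.44 without the deep cells and 1.63 after thinning, where 0 of 5 passed in either fit. Of 15 MHC class I and interferon-response genes 2 rose, B2m (0.59) and H2-D1 (0.70), which encode the light and a heavy chain of MHC class I, and neither passed without the deep cells. No gene of the lymphoid (5 tested), CDK and D cyclin (8) or immediate-early (8) lists passed in this comparison of the 4 older mice.

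Of 14 granulocyte and monocyte genes, the neutrophil granule genes Prtn3, Mpo, Elane and Ctsg rose with age in Vwf+ HSCs. Mpo stood at 66.0 and 138 CPM in the young mice and at 153 to 633 CPM in the 4 older mice (1.95 ± 0.30, edgeR adjusted p = 0.00119). The summed neutrophil markers, which include Elane, moved with these genes, from 59.4 and 33.5 CPM in young Vwf+ HSCs to 175 to 522 CPM in the older ones. In Vwf- HSCs the summed markers were 708 and 878 CPM in the young and 317 to 930 CPM in the older mice. Their part in the rise was not tested. From 50 to 78-79 weeks Mpo and Ctsg were lower (log2 changes -1.17 and -1.14, edgeR adjusted p = 0.0165 and 0.0247), but turned to 0.53 and 0.13 without cells of more than 15000 UMIs and to 0.11 and 0.74 when all 3 of Hlf, Procr and Mecom were required. For 78-95 against 14 weeks, without the highest doublet scores in each library none of the 4 genes passed, and Mpo and Ctsg turned to log2 changes of -0.47 and -0.94. Without the deep cells 1 passed, Prtn3. With equal cell numbers per mouse Ctsg fell instead (log2 change -3.76, edgeR adjusted p = 0.0191).

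Among the falls with age, Hist1h2ac, a histone gene, had the largest log2 change of the 10 named. It stood at 79.2 and 92.1 CPM in the young mice, 17.6 and 12.5 CPM at 50 weeks, 28.1 and 37.0 CPM at 78 and 79 weeks, and 7.17 and 5.51 CPM at 95 weeks. It fell by 2.54 on the log2 scale (SE 0.36, edgeR adjusted p = 0.000728), and by 3.15 without cells of more than 15000 UMIs (edgeR adjusted p = 9.4e-05). Mki67 stood at 270 and 737 CPM in the young mice and 31.6 to 158 CPM in the older ones, a log2 change of -2.39 ± 0.30 (edgeR adjusted p = 0.000229), but of 0.10 without the deep cells. Hist1h1b, Tspo2, Cit, Mns1, Knl1, Ehd1, Mcm5, a helicase subunit gene of DNA replication (-1.71 ± 0.30, edgeR adjusted p = 0.00411), and Uhrf1 completed the 10 largest falls. Without the deep cells Uhrf1 turned to 5.71 and Mns1 to 1.55, neither of which passed (edgeR adjusted p = 0.771 and 0.828). Of 20 phase genes 9 fell and none rose (median -1.27), while none of 15 passed without the deep cells. None of the 12 erythroid genes passed (median -1.26; 1 of 3 rose without the deep cells), beside the summed erythroid markers given above.

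**Figure D5:**
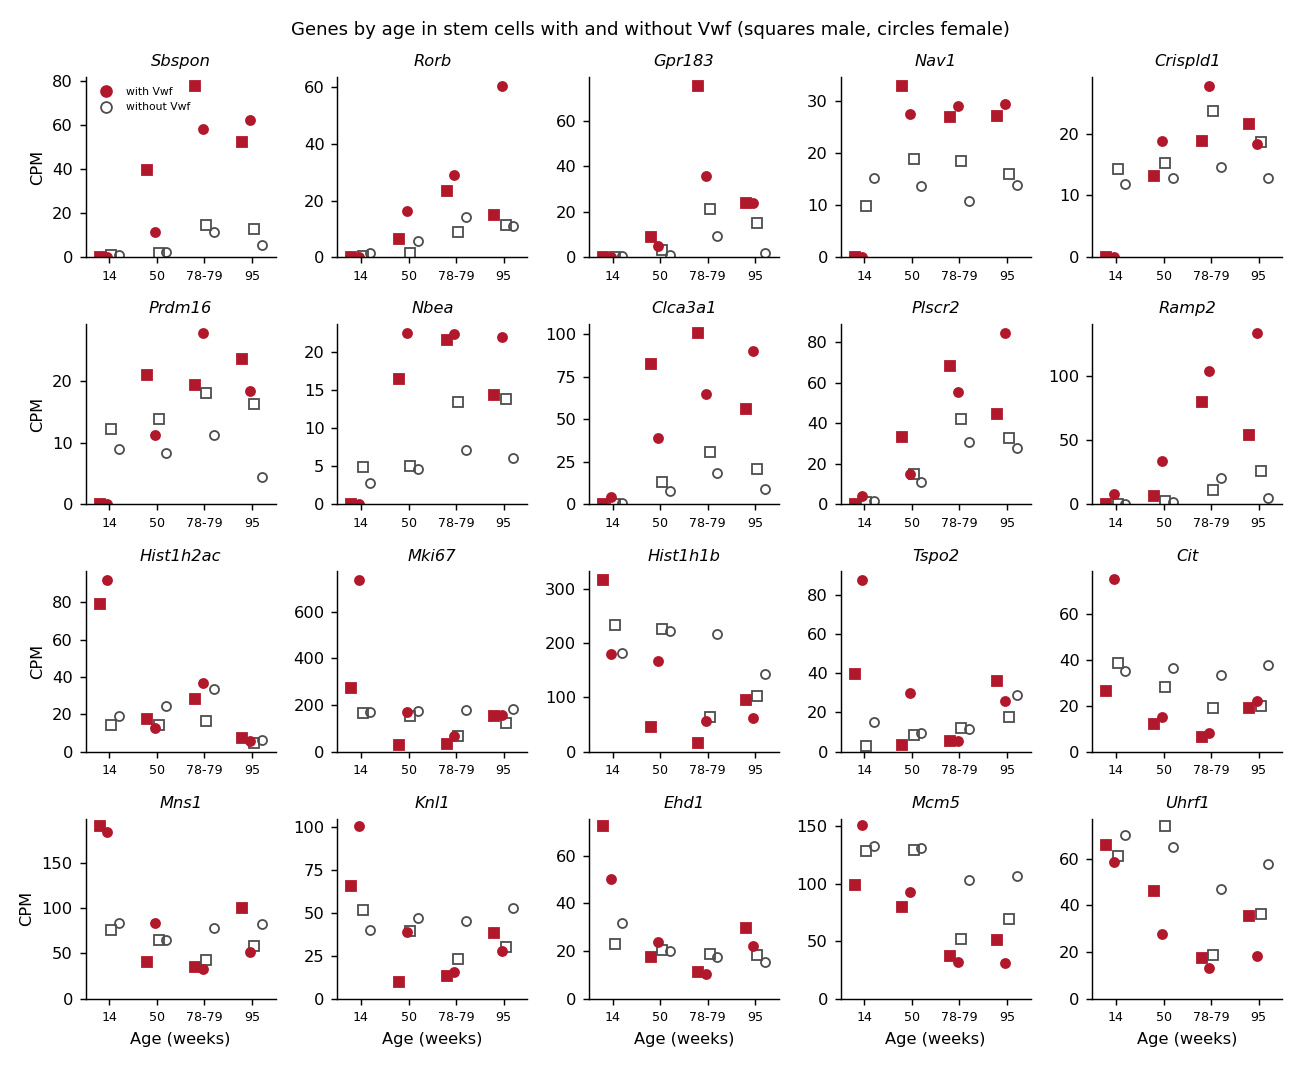
CPM by age in weeks for the 10 largest rises (upper panels) and 10 largest falls (lower panels) between 78-95 and 14 weeks in Vwf+ HSCs, for Vwf+ HSCs (filled) and Vwf- HSCs (open), squares for males and circles for females. Sbspon goes from 0 in both young mice to at least 52.2 CPM in the older mice, and Hist1h2ac from 79.2 and 92.1 CPM to at most 37.0 CPM.

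The single ages were compared in the same fit and share the young mice, so they are given side by side. At 50 weeks 16 genes (0.186%) passed against 14 weeks, 10 higher (0.116%) and 6 lower (0.0698%). Cavin2, Nupr1 and Sult1a1 were among the higher, as were 4 granulocyte genes, and 3 phase genes were among the lower. Without cells of more than 15000 UMIs 4 aged-HSC genes and 1 granulocyte gene were higher and no phase gene was lower. At 78 to 79 weeks 302 genes (3.51%) passed, 151 higher (1.76%) and 151 lower (1.76%), with 15 genes of the aged-HSC list higher and 13 phase genes and 5 erythroid genes lower. The immediate-early genes Ier2, Ier3 and Jund were also higher and Cdk4 and Cdk6 lower, of which none passed without the deep cells. For the aged-HSC list 2 of 22 genes were higher without Mki67 or Top2a cells and 7 without the highest doublet scores. Without the deep cells 9 aged-HSC genes were higher, none of 15 phase genes was lower, and of 3 erythroid genes 1 was higher and none lower. At 95 weeks 72 genes (0.837%) passed, 66 higher (0.767%) and 6 lower (0.0698%), with 8 genes of the aged-HSC list higher and 2 phase genes lower, against 8 and 0 without the deep cells. No aged-HSC list gene fell at any of these ages.

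Between 50 and 78-79 weeks, where all 4 mice belonged to SL19 and each had at least 51 Vwf+ HSCs, 94 genes (1.09%) passed, 34 higher (0.395%) and 60 lower (0.698%). Gpr183 rose from 8.79 and 5.02 CPM to 75.6 and 35.7 CPM (3.00 on the log2 scale, edgeR adjusted p = 0.00237). Of the aged-HSC list 5 of 25 genes rose, with Cavin2 at 1.08 and Sult1a1 at 0.91, and none fell. Of the phase genes 7 of 20 fell, and Cdk6 fell by 0.87, from 202 and 231 CPM to 134 and 96.4 CPM (edgeR adjusted p = 0.0385). Jun, 1 of the immediate-early genes, rose by 1.10 (edgeR adjusted p = 0.0315), with the old male and female at 299 and 153 CPM and the mice of 50 weeks at 122 and 89.0 CPM. Without cells of more than 15000 UMIs 19 genes passed, Gpr183 among them (2.70, edgeR adjusted p = 2.2e-05), while Cavin2, Sult1a1, Cdk6 and Jun did not. In that fit 2 aged-HSC genes were higher and no phase gene was lower. Without the old male no gene passed, and without the middle-aged female 6 did.

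The change with age was tested against that of the Vwf- HSCs of the same mice. Of 9661 genes, 2 (0.0207%) had an age effect that differed between the kinds of cell, Prtn3 and Pkm, both rising more in Vwf+ HSCs. Prtn3, the proteinase 3 gene of neutrophil granules, was at 270 and 452 CPM in young Vwf+ HSCs and at 1064 to 1173 CPM in the older ones, while Vwf- HSCs averaged 1192 CPM young and 1150 CPM older (difference of log2 changes 1.69, edgeR adjusted p = 0.00347). Pkm, a pyruvate kinase gene of glycolysis, was at 152 and 176 CPM in young and 338 to 415 CPM in older Vwf+ HSCs, against 347 to 447 CPM in the Vwf- HSCs of these mice (1.35, edgeR adjusted p = 0.00413). Without the young male, or without the highest doublet scores, no gene passed, and without cells of more than 15000 UMIs 49 passed, Pkm among them (1.25, edgeR adjusted p = 0.0128) but not Prtn3 (0.57, edgeR adjusted p = 0.325). For the other genes the test did not separate the kinds of cell at this number of mice, and 678 had an unadjusted p under 0.05. On simulated data this test recovered 0% of 2-fold and 5% of 4-fold differences. Sult1a1 rose in Vwf- HSCs too, from a mean of 7.06 ± 0.15 CPM (SD, n = 2) to 108 ± 50.4 CPM (SD, n = 4), beside 25.8 ± 0.89 and 299 ± 65.3 CPM in Vwf+ HSCs.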

How the data were processed

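The matrices hold raw UMI counts per gene and cell barcode, which the authors made with Cell Ranger (6.0.0 in the headers of all 8 matrices) on mm10 per the labels. The deposited counts cover 32285 genes and were used as they stand. For these libraries the labels name an earlier 10x kit than the study's methods, and the methods a later Cell Ranger. Members and gene lists were chosen with earlier results of these data known. Stem cells were taken by the rule in the text. Counts were summed over the cells of a mouse, the replicate, and tested with edgeR 4.0.16 (quasi-likelihood, TMM, filterByExpr, R 4.3.3) at a Benjamini-Hochberg adjusted p under 0.05. The SE of a log2 difference is the one implied by the test, its absolute value over the square root of the F statistic. The 6 genes of the rule were not tested. P-values measure the spread between mice, of which each age had 2. The quasi-likelihood fit estimates that spread for a gene in part from the other genes. Shares were read after thinning to 5000 UMIs and compared by exact permutation over mice. Unthinned shares, doublet scores (Scrublet in scanpy 1.11.5), DESeq2 1.42.0, cell and count filters, thinned counts, equal cell numbers, matched depth and leaving out each mouse served as alternatives, of which the limit of 15000 UMIs, the thinned rule for the share of stem cells and the fits without the 95-week mice were chosen after seeing the data. The scripts were tested on simulated data, with 200 genes changed and the spread between mice set in advance. For 78-95 against 14 weeks the fit recovered 3% of 2-fold and 26% of 4-fold changes. The test of the difference of the age effect recovered 0% and 5%, and that of with against without Vwf 45% and 93%. A gene that did not pass is therefore not shown to be unchanged. The genes named were the 10 largest differences each way among genes called whose mice did not overlap (age) or kept their sign in all 8 mice (with against without Vwf), the called genes of each list and the genes of the age difference. Gene models without a name, mitochondrial genes, Xist and Y-linked genes were counted but not named. Gene positions come from GENCODE vM21 and promoters from RefSeq, both on GRCm38. A few genes of the lists are not reported here by name.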

Additional observations from a re-analysis of the deposited data

Results flagged for a closer look

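In the 4 mice of 78 to 95 weeks, Nbea was at 14.3 CPM in the Vwf+ HSCs of the very old male, far below the other 3 mice for the range of the 4 by Dixon's 95% criterion. This was 1 of 24 values looked at in this way, where chance gives about 1 in 20. The change with age differed between Vwf+ and Vwf- HSCs for Prtn3, by 1.69 on the log2 scale, and for Pkm, by 1.35, both in the edgeR test of the difference itself (adjusted p = 0.00347 and 0.00413).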

How the results depend on the processing

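The 4 older mice stayed above the young mice in the share of stem cells with Vwf, by 13.3 to 16.3 points when each mouse was left out and by 13.7 to 15.7 points under the other alternatives at 5000 UMIs (20.7 points unthinned), with a ratio of 2.27 in place of 5.06 when all 3 stem cell genes were required. The share of all cells kept rose by 1.66 to 2.53 points without each mouse, by 1.12 points when thinned before the rule, by 0.839 points with at least 2 Vwf UMIs and by 1.86 to 2.11 points under the other alternatives. The correlation of the share with age fell to r = 0.599 without the young mice.

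Calls depended on the cells and the fit, and the cause was not tested. The number of genes tested changed too, so the counts below cannot be read as shares. The main age fits tested 8602 genes. Age fits tested 1723 genes with equal cell numbers, 5372 with at least 2 Vwf UMIs and 5674 after thinning. They tested 5960 with all 3 genes, 6028 without Mki67 or Top2a cells and 15917 without a filter. With against without Vwf, 9661 were tested, but 6073 with all 3 genes and 1207 with equal cell numbers. For 78-95 against 14 weeks (202), 37 genes passed with at least 2 Vwf UMIs, 65 without Mki67 or Top2a cells, 74 without the highest doublet scores, 97 without the sex term, 105 without cells over 15000 UMIs, 134 after thinning and 398 without a count filter. For 50 against 14 weeks (16), the same alternatives in that order gave 0, 3, 7, 3, 32, 27 and 117, beside 94 with all 3 stem cell genes and 2 with equal cell numbers. DESeq2 called 11 there, and 730 genes had an unadjusted p under 0.05 in the edgeR fit. For 78-79 against 14 weeks (302) the counts were 27 with at least 2 Vwf UMIs, 29 without Mki67 or Top2a cells, 40 without the highest doublet scores, 78 without cells over 15000 UMIs, 79 with equal cell numbers, 131 after thinning, 151 with DESeq2 and 532 without a filter. For 95 against 14 weeks (72) they were 12 with at least 2 Vwf UMIs, 19 without the sex term, 118 after thinning, 130 with all 3 genes and 192 without a filter. For 78-79 against 50 weeks (94) they were 2 with at least 2 Vwf UMIs, 5 with all 3 genes, 10 without Mki67 or Top2a cells, 14 without the sex term, 19 without cells over 15000 UMIs, 21 with equal cell numbers, 37 with DESeq2, 62 without the highest doublet scores and 347 without a filter. With against without Vwf (1329), 47 passed with 9 cells of each kind per mouse (the equal cell numbers used throughout), 183 with all 3 genes, 631 without Mki67 or Top2a cells, 800 with matched depth and 850 after thinning. For the difference of the age effect (2), 0 passed without the highest doublet scores (DESeq2 called 4), 1 with all 3 genes, 17 without the 95-week mice, 29 without Mki67 or Top2a cells, 45 after thinning, 49 without cells over 15000 UMIs and 53 without a filter.

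Leaving out each mouse gave 22 to 560 calls for 78-95 weeks (22 without the young female, 65 without the young male, 560 without the very old male), 2 to 97 for 50 weeks (2 without the young female, 97 without the very old female), 25 to 575 for 78-79 weeks (25 without the young female, 575 without the very old female), 14 to 338 for 95 weeks (14 without the young male and 14 without the young female, 338 without the very old male), 0 to 527 for 78-79 against 50 weeks (0 without the old male, 527 without the very old female), 909 to 1418 with against without Vwf and 0 to 12 for the difference of the age effect (0 without the young male, 12 without the very old male). Other mice that moved a count by over 1.5 times were, for 50 weeks, the young male (31), the middle-aged female (63), the old male (48), the old female (44) and the very old male (94), for 78-79 weeks the young male (119), the old male (116), the old female (154) and the very old male (560), for 95 weeks the middle-aged male (116) and female (128), for 78-79 against 50 weeks the middle-aged male (186), the middle-aged female (6), the old female (28) and the very old male (516), and for the difference of the age effect the old male (5) and the young female (5).

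Of 1789 values over 98 genes named for with against without Vwf, 1667 kept direction and call, 122 lost the call and 0 turned. For 78-95 against 14 weeks, 542 of 829 kept both, 265 lost the call and 22 turned. For 78-79 against 50 weeks, 168 of 332 kept both, 159 lost the call and 5 turned, and for the difference of the age effect 25 of 34 kept both and 9 lost the call. With at least 2 Vwf UMIs the log2 changes became -0.046 for Apoe, 6.78 for Cenpf, 1.06 for Hist1h1b, 0.85 for Knl1, 8.57 for Mki67, 1.68 for Mns1, 8.59 for Top2a, 5.91 for Tpx2 and 1.85 for Ube2c. This setting left 2 Vwf+ HSCs in each young mouse, too few to measure these levels. None of these changes passed (edgeR adjusted p from 0.257 for Top2a to 0.979 for Apoe). Without cells over 15000 UMIs the log2 changes were -0.053 for Ifitm1, 0.41 for Mcm6, 0.10 for Mki67, 1.55 for Mns1, 0.13 for Pcna and 5.71 for Uhrf1. None of them passed (edgeR adjusted p from 0.771 for Uhrf1 to 0.991 for Mki67). Ctsg turned to -0.19 with all 3 genes, -0.94 without the highest doublet scores, -0.26 without Mki67 or Top2a cells and -3.76 with equal cell numbers. The last of these falls of Ctsg passed (edgeR adjusted p = 0.0191) and the others did not. Mpo turned to -0.47 without the highest doublet scores, Mns1 to 1.21 without Mki67 or Top2a cells and Ube2c to 0.010 without the young female (lowest -1.93, without the young male). For 78-79 against 50 weeks, Ctsg became 0.74 with all 3 genes, 0.13 without cells over 15000 UMIs and 0.26 with equal cell numbers, and Mpo 0.11 and 0.53 under the first 2 of these. With 22 young Vwf+ HSCs, levels of a few CPM could not be measured in the young mice.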
